A study of Mus musculus with 8 samples.

Results

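Oxidative phosphorylation is the final stage of respiration, in which electrons pass along complexes I to IV of the inner mitochondrial membrane and complex V, the ATP synthase, uses the resulting proton gradient to make ATP. Complexes I, III, IV and V are built from subunits of both genomes, whereas complex II is encoded in the nucleus alone. The mitochondrial genome is transcribed from both strands as long precursors by its own polymerase, Polrmt, while each nuclear gene has its own promoter, so the same complex draws on separately controlled RNAs. In skin epidermis, oxidative metabolism accompanies keratinocyte growth and differentiation.

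The genes described here were chosen by symbol: rows named mt-Nd, mt-Co, mt-Cytb, mt-Atp, Nduf, Uqcr or Atp5, the structural Cox genes, Sdha, Sdhb, Sdhc, Sdhd and Cycs, with 7 pseudogene names dropped. The rule found 105 of 32574 genes, 13 of them mitochondrial and 92 nuclear. The mitochondrial members comprise 7 subunits of complex I, 1 of complex III, 3 of complex IV and 2 of complex V. The nuclear members comprise 36 subunits of complex I, 4 of complex II, 8 of complex III, 18 assigned to complex IV (including Ndufa4 and its relative Ndufa4l2), 15 of complex V, cytochrome c (Cycs), and 10 assembly factors or other genes with these names. These 13 are the protein-coding genes of the mouse mitochondrial genome. After the filter on low values (a share of at least 1e-06 of a library's total, met in 2 libraries or more), 13 mitochondrial and 89 nuclear members were tested. The 3 that did not pass were Cox4i2, Cox6a2 and Cox8b, with highest normalised read counts of 3.55, 1.42 and 4.23 in any library. Cox4i2, Cox6a2 and Cox8b are forms of complex IV subunits known from lung or muscle.

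The series profiled epithelial cells sorted from mouse skin epidermis by FACS, to study clone expansion and tissue fluidity in skin repair. It has 8 RNA sequencing libraries in 4 groups of 2: K14 ablation, K14 control, Lrig1 ablation and Lrig1 control. The ablation groups carry the genotype "Basal lineage ablation" and the control groups are WT. K14 is a keratin of basal epidermal cells and Lrig1 a marker of upper hair follicle stem cells. The sources used here do not say whether these words mean a Cre driver, the cells that were sorted or the cells that were ablated, and give no age, ablating agent or time. Below, population stands only for the label K14 or Lrig1, not for a known set of sorted or ablated cells. Nothing says that a group's libraries came from different mice, and every p-value therefore reflects library-to-library spread, which may be technical.

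Depth was 6458636 to 11654135 reads per library. All 9 basal keratinocyte markers were detected in every group, with summed normalised read counts of 97074 to 220105. The ablation pairs differed widely within themselves, with a chi-square per gene between the reads of a pair of 27.7 in K14 ablation and 39.5 in Lrig1 ablation, against 1.57 in K14 control and 2.58 in Lrig1 control. The Lrig1 ablation libraries differed from each other in their basal keratinocyte sum, at 215546 and 97074, against 116317 to 126612 in Lrig1 control. In every fit that leaves out a library, its group has 1 library, which is assumed to vary like those of the other groups. The share of all tested genes called in such a fit is not given here, so a count of members called in it has no background beside it.

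Several of the mitochondrial mRNAs have near-identical copies in the nucleus. The genes in a stretch of 4662 bases of the mitochondrial genome (GRCm38 chromosome M, 6381 to 11042) are matched by 7 pseudogenes that the GENCODE M21 annotation lists on the minus strand of chromosome 1 (24611535 to 24616197, 4663 bases). Only the annotated genes, not the bases between them, were compared. Gm28661 matched mt-Co2 over 681 of 681 bases, Gm10925 matched mt-Atp6 over 678 bases, Gm28437 matched mt-Co3 over 783 bases and Gm10222 matched mt-Nd4l over 294 bases, all with 0 mismatches. Gm28438 differed from mt-Nd3 by 1 of 345 bases, the substitution T3C, counted from 1 at the 5′ end of the mitochondrial gene. Gm28439 was identical to the first 876 bases of mt-Nd4, 63.6% of that gene. Gm29216 covered the last 492 bases of mt-Co1, 31.8% of the gene, and its 6 mismatches all lay near its beginning (T1056A, C1057T, A1059G, A1060G, C1062A and A1066T). The starts of the mt-Co1 and mt-Nd3 copies follow, 5′ to 3′, because they hold every base that tells these 7 copies from the mitochondrial genes; capitals mark those bases.
mt-Co1: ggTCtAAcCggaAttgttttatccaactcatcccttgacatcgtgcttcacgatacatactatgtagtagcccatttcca
Gm29216: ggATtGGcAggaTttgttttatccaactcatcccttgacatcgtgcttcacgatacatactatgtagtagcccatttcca
mt-Nd3: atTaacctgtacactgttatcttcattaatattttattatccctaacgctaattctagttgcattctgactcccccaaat
Gm28438: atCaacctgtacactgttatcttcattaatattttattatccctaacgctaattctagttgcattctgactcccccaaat

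The mt-Co1 line spans chromosome M, 6381 to 6460, and the mt-Nd3 line chromosome M, 9459 to 9538, both plus strand. The Gm29216 line spans chromosome 1, 24616118 to 24616197, and the Gm28438 line chromosome 1, 24613040 to 24613119, both minus strand. The mt-Atp8 gene starts between mt-Co2 and mt-Atp6 and runs into mt-Atp6, and the aligned parts of mt-Co2 and mt-Atp6 lie 233 bases apart on both chromosomes. A read that lies wholly in identical sequence cannot be assigned to either place, and how the authors treated such reads is not stated in the sources used here. The levels followed the map. Per kilobase of gene, the 6 mRNAs inside the stretch (mt-Co2, mt-Atp8, mt-Atp6, mt-Co3, mt-Nd3 and mt-Nd4l) had a median of 113 normalised reads in K14 ablation, 98.1 in K14 control, 160 in Lrig1 ablation and 492 in Lrig1 control. The 7 mRNAs outside it or only partly in it (mt-Nd1, mt-Nd2, mt-Co1, mt-Nd4, mt-Nd5, mt-Nd6 and mt-Cytb) had medians of 15261, 19442, 23244 and 50374 in the same groups. The nuclear members' medians were 228, 188, 200 and 199. The 6 genes inside the stretch made up 0.0963 to 0.322% of the reads of all 13 mitochondrial members. The part of shared reads in these low values was not tested, and the values are uncertain as levels of the mRNAs.

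**Figure D1:**
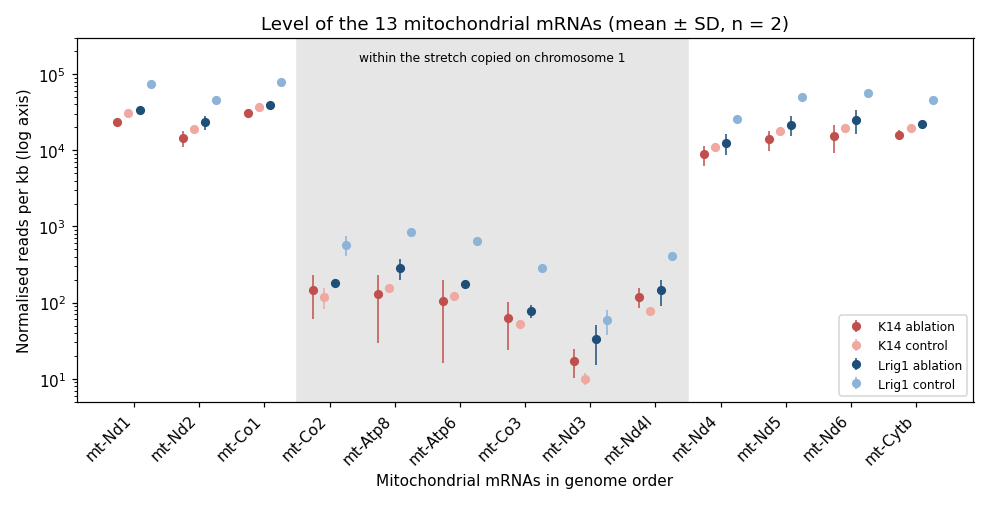
Normalised reads per kilobase (log axis) of the 13 mitochondrial mRNAs in genome order, with the mean of 2 libraries per group as points and the SD as bars. The 6 genes in the shaded stretch that is copied on chromosome 1 lie far below the 7 others in every group, and Lrig1 control is the highest group for all 13 genes.

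Together the 13 mitochondrial mRNAs took the largest share of reads in Lrig1 control. Their share of the normalised total was 2.06 and 1.55% in K14 ablation, 2.23 and 2.23% in K14 control, 2.37 and 3.30% in Lrig1 ablation, and 4.80 and 5.27% in Lrig1 control. The ablation libraries lay below their own controls in both populations, and both Lrig1 groups lay above both K14 groups. The 92 nuclear members took 0.573 and 0.668% in K14 ablation, 0.504 and 0.481% in K14 control, 0.649 and 0.410% in Lrig1 ablation, and 0.469 and 0.460% in Lrig1 control. Here K14 ablation lay above K14 control, while the Lrig1 ablation libraries fell on either side of Lrig1 control. The ratio of the mitochondrial to the nuclear sum was 3.59 and 2.32 in K14 ablation, 4.42 and 4.64 in K14 control, 3.65 and 8.06 in Lrig1 ablation, and 10.2 and 11.5 in Lrig1 control. In each population the ratio was lower in both ablation libraries than in both control libraries, with a difference of mean log2 ratios of -0.65 in K14 and -0.998 in Lrig1. No p is given for these sums over chosen genes. In bulk RNA, fewer cells of a type and less RNA per cell cannot be told apart.

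**Figure D2:**
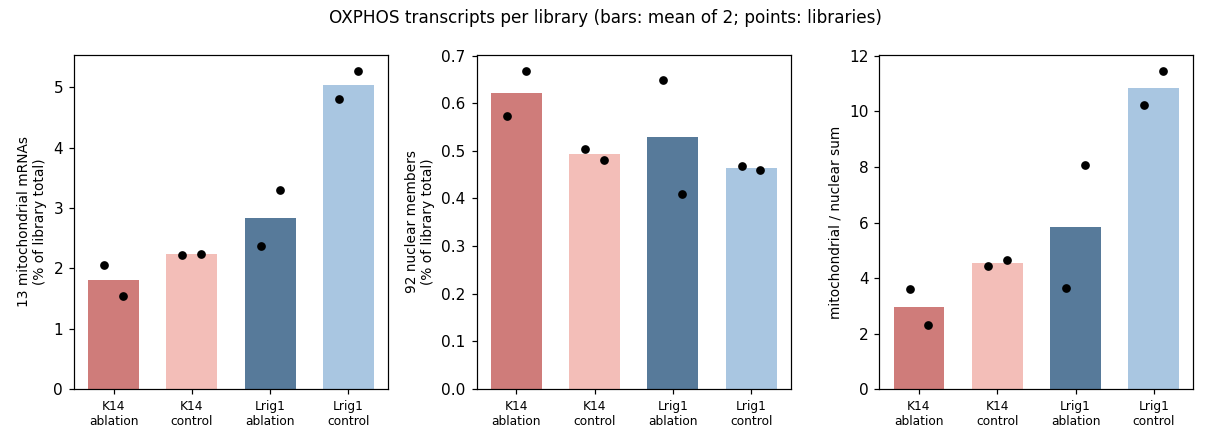
Share of each library's normalised total in the 13 mitochondrial mRNAs (left) and the 92 nuclear members (middle), in percent, and the ratio of the sums (right), by group, with points for libraries and bars for the mean of 2. The ratio lies between 10.2 and 11.5 in Lrig1 control and between 2.32 and 8.06 in the other groups.

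By complex, the mitochondrial reads came mostly from complex I genes, with 0.832 to 1.19% of the total in K14 ablation, 1.27 to 1.29% in K14 control, 1.35 to 2.03% in Lrig1 ablation and 2.95 to 3.22% in Lrig1 control. All mitochondrial genes of complexes IV and V except mt-Co1 lie inside the copied stretch, as do mt-Nd3 and mt-Nd4l of complex I. Their low values are uncertain, so this ranking by complex cannot be read as RNA composition. Among nuclear members, complex V took the largest share, at 0.228 and 0.261% in K14 ablation, 0.192 and 0.183% in K14 control, 0.251 and 0.151% in Lrig1 ablation, and 0.167 and 0.170% in Lrig1 control. Per kilobase, the most abundant nuclear member was Atp5a1, the alpha subunit of the ATP synthase, at 1689 ± 184 normalised reads in K14 ablation and 1262 ± 6.82 in K14 control (SD, n = 2 each).

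Between the unablated populations, the mitochondrial mRNAs were higher in Lrig1 control than in K14 control, and no nuclear member passed the test over all 4 groups. In limma's test across all genes, with p-values adjusted by the Benjamini-Hochberg method over the 18140 genes tested and called under 0.05, 12 of the 13 mitochondrial members were higher in Lrig1 control, where 6.52% of all tested genes were called higher and 8.79% in either direction. Of the 89 nuclear members, 0 were called by limma, and 1 had an unadjusted p under 0.05, as did 24.4% of all tested genes. For all 13 mitochondrial members both Lrig1 control libraries lay above both K14 control libraries, as they did for 34.5% of all tested genes. edgeR and DESeq2 each called the same numbers, 12 mitochondrial and 0 nuclear. With array weights limma called 13 mitochondrial and 6 nuclear members (4 higher, 2 lower), and in a fit of the compared groups alone 13 mitochondrial and 18 nuclear members (12 higher, 6 lower). The median log2 fold change (of value + 1, here and below) was 1.54 over the mitochondrial and 0.06 over the nuclear members, against -0.0049 over all tested genes. With every library scaled to the same total, the nuclear median was -0.03, the median of all genes -0.10, and 10 mitochondrial members were called.

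mt-Nd1 (chromosome M, 2751 to 3707), a membrane subunit of complex I, had normalised read counts of 67523 and 76073 in Lrig1 control, against 29590 and 29150 in K14 control. The groups were well apart, with a log2 fold change of 1.29 (SE 0.24, limma adjusted p = 0.017). mt-Nd5, another proton-pumping subunit of complex I, had 86082 and 97683 in Lrig1 control, against 31766 and 33782 in K14 control (log2 fold change 1.49, limma adjusted p = 0.029). mt-Cytb, the cytochrome b of complex III, had 48740 and 54714 in Lrig1 control, against 22064 and 22418 in K14 control (1.22, limma adjusted p = 0.020). In each of these genes both Lrig1 control libraries were clear of both K14 control libraries. mt-Co1, the catalytic subunit of complex IV, was the 1 member that missed the threshold. It had 114302 and 131299 in Lrig1 control, against 58199 and 57429 in K14 control (1.08, limma adjusted p = 0.054), and the groups did not overlap.

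Of the other complex I mRNAs outside the stretch or only partly in it, mt-Nd2 changed by 1.26, mt-Nd4 by 1.23 and mt-Nd6 by 1.54 on the log2 scale. mt-Nd6 is the only one of the 13 encoded on the minus strand, and as the strand setting of the counting is not given, reads from it and from the transcript of the opposite strand cannot be told apart. mt-Atp8 and mt-Atp6 overlap, as do mt-Nd4l and mt-Nd4, and their values are uncertain in the same way. The 6 genes inside the copied stretch had larger values, from 2.21 for mt-Nd3 to 2.41 for mt-Atp6, and the 7 pseudogene copies on chromosome 1 moved alike: 6 of 7 were called higher in Lrig1 control, with a median log2 fold change of 1.96. Of all tested genes 6.52% were called higher. mt-Nd3 rested on few reads, with 15.1 and 25.4 normalised reads in Lrig1 control and 3.05 and 3.94 in K14 control, where 3 reads correspond to 3.05 and 2.95. For the 7 genes outside or partly in the stretch the median was 1.26.

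The nuclear members lay on both sides of 0, with 56 of 89 positive, where 49.5% of all tested genes were. By complex the medians were 0.10 for complex I, -0.0014 for complex II, 0.11 for complex III, 0.09 for complex IV, 0.04 for complex V and -0.08 for the assembly genes. The core members also lay on both sides. Sdhb (0.37), Ndufb8 (0.35), Cycs (0.21), Cox6c (0.19), Ndufv1 (0.09) and Uqcrfs1 (0.06) were positive without a call. Uqcrc1 (-0.25), Atp5a1 (-0.23), Ndufa9 (-0.16), Cox5a (-0.10) and Cox4i1 (-0.06) were negative without a call. Ndufs1, an iron-sulfur subunit of complex I, had 586 and 681 normalised reads in Lrig1 control, against 651 and 637 in K14 control. Sdha, the flavoprotein of complex II, had 797 and 811 in Lrig1 control, against 805 and 760 in K14 control. Atp5b, the catalytic subunit of the ATP synthase, had 3707 and 3958 in Lrig1 control, against 4429 and 4157 in K14 control. The ranges of Ndufs1 and Sdha overlapped, and Atp5b lay lower in Lrig1 control without passing the test (log2 fold change -0.16, SE 0.29, limma adjusted p = 0.79). The lowest nuclear values were those of Cox6b2, a form of a complex IV subunit known from testis (-1.75), Ndufa4l2 (-0.90) and Cox7a1, a muscle and heart form (-0.69), and the highest were those of the complex I subunits Ndufb4 (0.54), Ndufs5 (0.51) and Ndufa8 (0.40). None of these 6 was called. Ndufa4l2 had 309 ± 22.3 normalised reads in Lrig1 control, against 577 ± 10.5 in K14 control (SD), and the groups did not overlap. Its SE of 0.75 pools the spread of all groups, including Lrig1 ablation, where it had 243 ± 267. Cox6b2 had 1.16 and 4.23 normalised reads in Lrig1 control, which is at or under the floor of 3 reads per library, against 7.11 and 14.8 in K14 control.

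These calls rested on each of the 4 control libraries. Leaving out any 1 of them lost limma's calls of members, while the mitochondrial median stayed between 1.43 and 1.65. Leaving out an ablation library changes only the pooled spread in this comparison, and the mitochondrial calls were then kept. Without either Lrig1 ablation library limma also called a nuclear member lower. Without Lrig1 ablation 2 that member was Ndufa4l2, at -0.90.

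**Figure D3:**
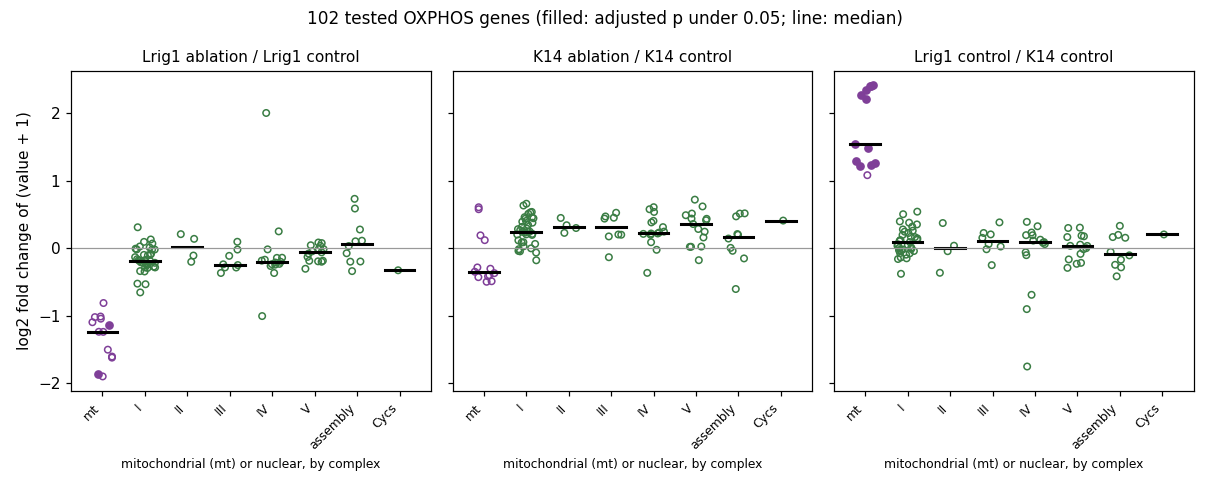
Log2 fold change of the 102 tested members in 3 comparisons, mitochondrial members first and nuclear members by complex, with filled points for an adjusted p under 0.05 and lines at the median. In Lrig1 control against K14 control the mitochondrial points lie between 1.08 and 2.41 and the nuclear medians lie near 0, and in Lrig1 ablation against Lrig1 control every mitochondrial point lies below 0.

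Marker sums also differed between these populations. The 9 basal keratinocyte markers summed to 116317 to 126612 in Lrig1 control, against 183314 to 186040 in K14 control. Their median log2 fold change was -0.50, yet limma called 2 of the 9 higher and 0 lower. It called 6.52% of all tested genes higher. The fibroblast markers summed to 190 to 296 in Lrig1 control, against 85.3 to 92.5 in K14 control, where Lum was at 0. The 7 endothelial and mural markers summed to 597 to 686 normalised reads in Lrig1 control, against 61.0 to 81.2 in K14 control, where Kdr was at 0. The 7 myeloid and Langerhans cell markers summed to 835 to 1139 in Lrig1 control, against 281 to 419 in K14 control. The 6 suprabasal keratinocyte markers summed to 94342 to 108303 in Lrig1 control, against 57789 to 62346 in K14 control, and the 4 upper hair follicle markers to 48607 to 50898 in Lrig1 control, against 6694 to 6736 in K14 control. The 3 measured hair shaft keratins summed to 219 to 689 in Lrig1 control, against 8.12 to 20.7 in K14 control. The 9 dissociation and immediate early genes went the other way, at 43740 to 48038 in Lrig1 control, against 82220 to 89016 in K14 control. Erythroid markers reached at most 2.82 in Lrig1 control and were at 0 in K14 control. The part of these markers in the mitochondrial difference was not tested.

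With ablation in the Lrig1 population, 12 of 13 mitochondrial mRNAs lay lower in both libraries, 2 of them past the test, and most nuclear members lay above the control mean in 1 library and below it in the other. limma called 2 of 13 mitochondrial members lower and 0 of 89 nuclear members in either direction, where 3.30% of all tested genes were called lower and 4.06% in either direction. At an unadjusted p under 0.05 there were 12 mitochondrial and 3 nuclear members, and 20.1% of all tested genes. DESeq2 called 12 mitochondrial members and edgeR 2, and both called 0 nuclear members. Both Lrig1 ablation libraries lay below both Lrig1 control libraries for 12 of the 13 mitochondrial members, as they did for 26.4% of all tested genes. The median log2 fold change was -1.24 over the mitochondrial, -0.17 over the nuclear and -0.02 over all tested genes, and 21 of 89 nuclear members were positive, as were 48.4% of all tested genes. With every library scaled to the same total the medians became -0.98, 0.08 and 0.23, so the sign of the nuclear median depends on the scaling, and limma called 0 members. This comparison and the one between the control groups share the Lrig1 control libraries.

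mt-Nd1 had 30592 and 34941 normalised reads in Lrig1 ablation, against 67523 and 76073 in Lrig1 control. It fell by 1.13 on the log2 scale (SE 0.24, limma adjusted p = 0.041), to 0.456 of the control level. mt-Co3, a core subunit of complex IV that lies inside the copied stretch, had 69.2 and 52.5 in Lrig1 ablation, against 221 and 223 in Lrig1 control, and fell by 1.86 (SE 0.41, limma adjusted p = 0.047). Its copy Gm28437, identical in sequence, fell by 1.80 (limma adjusted p = 0.016). The next in order missed the threshold: mt-Cytb had 22607 and 27853 in Lrig1 ablation, against 48740 and 54714 in Lrig1 control (log2 fold change -1.04, limma adjusted p = 0.052), and mt-Nd4l had 31.9 and 54.9, against 111 and 131 (-1.50, limma adjusted p = 0.054). mt-Co1 had 57428 and 63716 in Lrig1 ablation, against 114302 and 131299 in Lrig1 control (-1.02, limma adjusted p = 0.091). Without Lrig1 ablation 2 mt-Nd1 was at -1.23 (limma adjusted p = 0.0095) and mt-Co3 at -1.67 (limma adjusted p = 0.078), so the call of mt-Co3 was lost. The remaining mitochondrial values ran from -1.90 for mt-Atp6, through -1.62 for mt-Co2, -1.60 for mt-Atp8, -1.24 for mt-Nd5, -1.24 for mt-Nd6, -1.09 for mt-Nd4 and -1.01 for mt-Nd2, to -0.81 for mt-Nd3, whose groups overlapped.

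Of the rest of the mitochondrial genome, mt-Rnr1, the small ribosomal RNA, had 19910 and 21266 normalised reads in Lrig1 ablation, against 47059 and 50468 in Lrig1 control (log2 fold change -1.24, limma adjusted p = 0.033). mt-Ti, the isoleucine transfer RNA, had 577 and 824 in Lrig1 ablation, against 1765 and 1835 in Lrig1 control (-1.38, limma adjusted p = 0.033). Without Lrig1 ablation 2 mt-Rnr1 was at -1.29 and mt-Ti at -1.64 (limma adjusted p = 0.018 and 0.017). These were the 2 of 22 tested mitochondrial transfer and ribosomal RNA genes that were called in this comparison, and all 22 had negative values. Of all tested genes 3.30% were called lower and 48.4% were positive. In K14 ablation against K14 control 0 of the 22 were called and 16 were positive, as were 49.7% of all tested genes. Their median was 0.19 there, against -0.35 over the mitochondrial mRNAs. The 2 ribosomal RNAs took 0.515 and 0.762% of reads in K14 ablation, against 0.650 and 0.635% in K14 control. In Lrig1 control against K14 control, 10 of the 22 were called higher and all 22 were positive, where 6.52% of all tested genes were called higher and 49.5% were positive. Among the 10 called, the 5 with the largest change were mt-Tp (1.86), mt-Ta (1.82), mt-Tn (1.78), mt-Te (1.68) and mt-Tc (1.59), transfer RNAs for proline, alanine, asparagine, glutamate and cysteine. Reads of these short genes can include precursor RNA of either strand, which the values do not separate.

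The nuclear members differed between the Lrig1 ablation libraries. Set against the mean of Lrig1 control, the median nuclear member was 0.22 higher on the log2 scale in Lrig1 ablation 1, with 79 of 89 above 0, and 0.50 lower in Lrig1 ablation 2, with 9 of 89 above 0. Atp5b had 5381 and 2687 normalised reads in Lrig1 ablation, against 3707 and 3958 in Lrig1 control, so 1 library was above and the other below both controls. Uqcrc1, a core subunit of complex III, had 2401 and 1176 in Lrig1 ablation, against 1597 and 1544 in Lrig1 control. Cox4i1, a complex IV subunit, had 1453 and 662 in Lrig1 ablation, against 1133 and 1092 in Lrig1 control. Cycs, the carrier between complexes III and IV, had 329 and 177 in Lrig1 ablation, against 307 and 297 in Lrig1 control. Another set of short, abundant mRNAs split in the same direction: the 88 tested cytosolic ribosomal protein genes had medians of 0.05 in Lrig1 ablation 1 and -0.82 in Lrig1 ablation 2, where 0 of 88 lay above 0. The median over all tested genes was -0.01 in Lrig1 ablation 1 and -0.03 in Lrig1 ablation 2. The mitochondrial members were lower in each library, with medians of -1.53 in Lrig1 ablation 1 and -1.04 in Lrig1 ablation 2, and 0 of 13 above 0 in either.

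**Figure D4:**
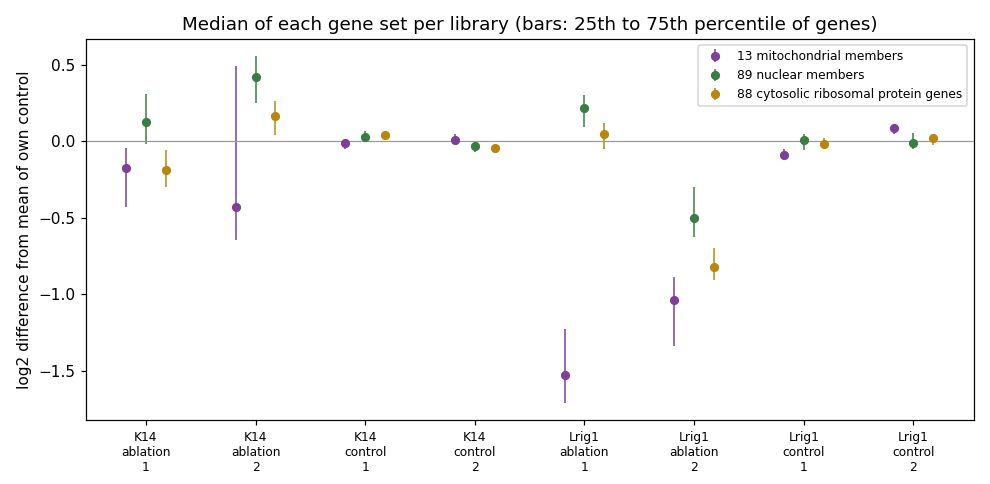
Log2 difference of each library from the mean of its own control group, as the median over genes (points) and the 25th to 75th percentile of genes (bars), for 13 mitochondrial members, 89 nuclear members and 88 cytosolic ribosomal protein genes. In Lrig1 ablation 1 the nuclear median is 0.22 and the mitochondrial median -1.53, and in Lrig1 ablation 2 they are -0.50 and -1.04.

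The largest nuclear values in this comparison were those of Cox6b2 (2.00), with 9.76 and 15.9 normalised reads in Lrig1 ablation and 1.16 and 4.23 in Lrig1 control, and of the assembly genes Ndufaf6 (0.73) and Atp5sl (0.59). The lowest were those of Ndufa4l2 (-1.002), Ndufa6 (-0.65) and Ndufc2 (-0.53), the last pair being accessory subunits of complex I. None was called. Ndufa4l2, a relative of Ndufa4 that is induced by hypoxia (chromosome 10, 127514967 to 127517154), had 432 and 54.1 in Lrig1 ablation, against 325 and 293 in Lrig1 control, so its negative value came from Lrig1 ablation 2 alone. Cox7a1 had 5.33 and 15.9 in Lrig1 ablation, on either side of the 6.99 and 8.46 in Lrig1 control. The widely expressed Cox6a1, Cox7a2, Cox8a and Ndufa4 were at 417 ± 161, 380 ± 159, 322 ± 133 and 391 ± 164 in Lrig1 ablation (SD).

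The number of calls depended on single libraries. The mitochondrial median was -1.04 without Lrig1 ablation 1 and -1.53 without Lrig1 ablation 2, with the Lrig1 ablation arm then 1 library. In the same fits the nuclear median was -0.50 and 0.22, and that of all tested genes -0.03 and -0.01. Atp5b was at 0.49 without Lrig1 ablation 2. limma's calls of members were lost when any 1 control library of either population was left out. Their number rose when a K14 ablation library was left out. Leaving out a K14 library changes only the pooled spread here, and the mitochondrial median stayed at -1.24 each time. Some nuclear members were called lower without Lrig1 ablation 1, and some were called higher without Lrig1 ablation 2. The marker sums differed here too: suprabasal markers summed to 29449 to 29923 in Lrig1 ablation, against 94342 to 108303 in Lrig1 control, upper hair follicle markers to 14689 to 29052, against 48607 to 50898, endothelial and mural markers to 55.0 to 130, against 597 to 686, and myeloid markers to 156 to 166, against 835 to 1139. Hair shaft keratins summed to 5.57 to 12.4 in Lrig1 ablation, against 219 to 689 in Lrig1 control, and fibroblast markers to 170 to 300, against 190 to 296. Their part in the lower mitochondrial values was not tested.

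With ablation in the K14 population, no member passed the test. limma called 0 of 102, where 0.187% of all tested genes were called, and 5 members, all nuclear, had an unadjusted p under 0.05, against 12.8% of all tested genes. edgeR and DESeq2 each called 0. The values of the nuclear members leaned one way, with 77 of 89 positive where 49.7% of all tested genes were, and a median of 0.25. Both K14 ablation libraries lay above both K14 control libraries for 56 of 89 nuclear members, as they did for 27.4% of all tested genes. Among the mitochondrial members the median was -0.35. All 7 genes outside or partly in the copied stretch were negative, from -0.43 for mt-Nd2 to -0.28 for mt-Cytb, and 6 of them lay below both controls in both ablation libraries, as did 25.7% of all tested genes. The 6 genes in the stretch ran from -0.49 for mt-Atp8 to 0.61 for mt-Nd3.

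Atp5d, the delta subunit of the ATP synthase (chromosome 10, 80138632 to 80145818), had the lowest adjusted p of the members, with 872 and 944 normalised reads in K14 ablation, against 538 and 562 in K14 control. The groups did not overlap, and it differed by 0.72 on the log2 scale (SE 0.17, limma adjusted p = 0.18). Cox5a, a complex IV subunit, had 730 and 798 in K14 ablation, against 487 and 565 in K14 control (0.54, limma adjusted p = 0.43). Atp5a1 had 4888 and 5704 in K14 ablation, against 3941 and 3972 in K14 control (0.42, limma adjusted p = 0.57). In each of these genes both ablation libraries were the higher.

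By complex the nuclear medians were 0.25 for complex I, 0.32 for complex II, 0.32 for complex III, 0.23 for complex IV, 0.36 for complex V and 0.17 for the assembly genes. Of the core subunits, Sdha had 982 and 1002 in K14 ablation, against 805 and 760 in K14 control (0.34), and Uqcrc1 had 2313 and 2896, against 1831 and 1900 (0.47). Ndufb8, an accessory subunit of complex I, had 452 and 576 in K14 ablation, against 382 and 335 in K14 control (0.51). Ndufs1 (0.20), Ndufv1 (0.29), Ndufa9 (0.28), Sdhb (0.23), Uqcrfs1 (0.18), Cycs (0.41), Cox4i1 (0.22), Cox6c (0.25) and Atp5b (0.44) were also positive without a call. After Atp5d the highest values were those of the complex I subunits Ndufs5 (0.66) and Ndufa8 (0.63), and the lowest those of the assembly factor Ndufaf2 (-0.60), Cox6b2 (-0.36) and Ndufb4 (-0.18). Of the complex IV subunits with tissue forms, the widely expressed ones were at 0.38 for Cox6a1, 0.31 for Cox6b1, 0.20 for Cox7a2, -0.02 for Cox7a2l, 0.61 for Cox8a and 0.21 for Ndufa4, none of them called.

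The mitochondrial genes had wider ranges than the nuclear ones in K14 ablation. mt-Nd5 had 30940 and 19992 in K14 ablation, against 31766 and 33782 in K14 control, and mt-Co1 had 51169 and 43002, against 58199 and 57429. K14 ablation 2 was the lower library in both. That library had the higher nuclear values: the median nuclear member was 0.12 above the K14 control mean in K14 ablation 1 and 0.42 above it in K14 ablation 2, and the ribosomal protein genes had medians of -0.19 and 0.17 in the same libraries. Suprabasal markers summed to 50131 to 75822 in K14 ablation, against 57789 to 62346 in K14 control, myeloid markers to 331 to 1386, against 281 to 419, and immediate early genes to 53893 to 62595, against 82220 to 89016. Basal keratinocyte markers summed to 212007 to 220105 in K14 ablation, against 183314 to 186040 in K14 control. Upper hair follicle markers summed to 7785 to 13378, against 6694 to 6736, and fibroblast markers to 123 to 125, against 85.3 to 92.5. Their part was not tested. Leaving out a Lrig1 ablation library, which changes only the pooled spread, led to some calls of nuclear members as higher. Without K14 ablation 1 the nuclear median was 0.42 and the mitochondrial median -0.43. Without K14 ablation 2 they were 0.12 and -0.18.

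The ablation effects of the populations were compared as a difference, the Lrig1 effect minus the K14 effect. limma called 0 of 102 members, where 0.198% of all tested genes were called, with 3 mitochondrial and 3 nuclear members at an unadjusted p under 0.05, against 15% of all tested genes. DESeq2 called 1 member and edgeR 0. The median difference was -0.84 over the mitochondrial and -0.40 over the nuclear members, with 10 of 102 members positive, where 47.9% of all tested genes were. mt-Nd4l had the lowest adjusted p (difference -2.08, SE 0.49, limma adjusted p = 0.12). Its values were 28.3 and 42.9 in K14 ablation, against 23.4 and 22.6 in K14 control, and 31.9 and 54.9 in Lrig1 ablation, against 111 and 131 in Lrig1 control. mt-Nd4l and Ndufa7, a complex I subunit named here after its values were seen, were the 2 of 102 members whose ablation libraries lay above both controls in K14 and below both in Lrig1, as did 6.31% of all tested genes. For Ndufa7 the difference was -0.58 (SE 0.30, limma adjusted p = 0.41). More members were called in this comparison without Lrig1 ablation 1. The nuclear median moved to -0.78 without that library and -0.04 without Lrig1 ablation 2, where the mitochondrial median was -1.13. Over all tested genes the medians were -0.07 and -0.0033 in these fits.

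Between the ablated populations, Lrig1 ablation against K14 ablation, limma called 0 of 102 members, where 0.667% of all tested genes were called. edgeR and DESeq2 also called 0, and 2 mitochondrial and 7 nuclear members had an unadjusted p under 0.05, against 16.4% of all tested genes. All 13 mitochondrial members were positive, as were 47.8% of all tested genes, with a median of 0.52, which is smaller than the 1.54 between the control groups. Both Lrig1 ablation libraries lay above both K14 ablation libraries for 6 of the 13, as they did for 19% of all tested genes. Of the nuclear members 81 of 89 were negative, with a median of -0.33, against a median of -0.02 over all tested genes. Ndufa4l2 was the lowest, with 432 and 54.1 normalised reads in Lrig1 ablation, against 802 and 729 in K14 ablation (log2 fold change -2.31, SE 0.75, limma adjusted p = 0.21). Its values in the controls were 325 and 293 in Lrig1 control and 584 and 569 in K14 control. Cox5a (-0.85) and Uqcr11 (-0.69) followed, and Cox6b2 (0.62), Ndufb4 (0.54) and Atp5l (0.26) were the highest. Without Lrig1 ablation 1 the mitochondrial median was 0.64 and the nuclear median -0.67. Without Lrig1 ablation 2 they were 0.36 and 0.03, so the nuclear values rest on which Lrig1 ablation library is used.

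Of 20 genes for mitochondrial DNA copying and transcription, limma called 0 in each comparison, where it called 0.187% of all tested genes in K14 ablation, 4.06% in Lrig1 ablation and 8.79% between the control groups. Polrmt, the mitochondrial RNA polymerase, had 310 and 322 normalised reads in K14 ablation, against 167 and 196 in K14 control (log2 fold change 0.80, limma adjusted p = 0.18), and 256 and 200 in Lrig1 ablation, against 242 and 200 in Lrig1 control (0.04, limma adjusted p = 0.94). Tfam, the packaging and transcription factor of mitochondrial DNA, had 284 and 223 in Lrig1 ablation, against 269 and 250 in Lrig1 control (-0.04). In Lrig1 control against K14 control, Tfam (-0.07), Polrmt (0.28), the elongation factor Tefm (-0.09), the helicase Twnk (-0.03) and the DNA polymerase Polg (-0.19) did not pass the test. Of 20 genes for mitochondrial RNA processing and stability, Ptcd3, a pentatricopeptide protein of the mitochondrial ribosome, was the 1 call, lower in Lrig1 control (484 and 510) than in K14 control (784 and 712; -0.59, limma adjusted p = 0.032). Lrpprc (-0.34, limma adjusted p = 0.22) and Slirp (-0.10, limma adjusted p = 0.84), which together stabilise mitochondrial mRNAs, were not called. In that comparison 3 of these 20 were positive, with a median of -0.34, against -0.0049 over all tested genes, and 8 had an unadjusted p under 0.05. Of all tested genes 49.5% were positive and 24.4% had an unadjusted p under 0.05.

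Of 15 tested biogenesis regulators 0 were called in any comparison. Over all tested genes limma called 0.187% in K14 ablation, 4.06% in Lrig1 ablation and 8.79% between the control groups. It called 0.667% between the ablation groups and 0.198% for the difference of ablation effects. These shares are the background for every count of calls in this paragraph. In Lrig1 control against K14 control, the coactivator Ppargc1b was at -0.63 (limma adjusted p = 0.18), and the transcription factors Nrf1, Gabpa and Esrra were at -0.13, 0.03 and -0.25. In K14 ablation against K14 control they were at 0.14, 0.19, -0.04 and 0.32 in the same order, and in Lrig1 ablation against Lrig1 control at 0.66, 0.24, -0.05 and 0.12. Ppargc1a did not pass the filter on low values. Of 39 further assembly factors and 15 carriers and channels 0 were called in any comparison. The 78 mitochondrial ribosomal protein genes also had 0 calls. In K14 ablation 67 of these 78 were positive, with a median of 0.21, near the 0.25 of the nuclear members, and in Lrig1 ablation 35 of 78 were, with a median of -0.01. Over all tested genes 49.7% were positive in K14 ablation and 48.4% in Lrig1 ablation. Of 22 citrate cycle and pyruvate dehydrogenase genes, Pdk2, a kinase that inhibits pyruvate dehydrogenase, was called, with 159 and 149 in Lrig1 control, against 67.0 and 67.0 in K14 control (1.19, limma adjusted p = 0.039). Of the 88 cytosolic ribosomal protein genes only Rpl26 was called, with 631 and 387 in Lrig1 ablation, against 1801 and 2005 in Lrig1 control (-1.94, limma adjusted p = 0.0084), and it was also lower in Lrig1 ablation than in K14 ablation (-1.64, limma adjusted p = 0.036). Without Lrig1 ablation 2 these were -1.59 (limma adjusted p = 0.0055) and -1.28 (limma adjusted p = 0.052).

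Some nuclear members hold letters of known motifs in their promoters, which the choice by name did not use. Promoter sequences from RefSeq (GRCm38.p6, 250 bases before to 50 after the first listed start) matched 74 of the 92 nuclear members. The letters GCATGCGC, the core of the site of the transcription factor NRF1, were found on either strand in 13 of 74 (17.6%), against 2.80% of 27025 promoters. A longer, palindromic form that contains it was found in 7 (9.46%), against 0.977%, and the shorter form was chosen after the longer one had been searched. CCGGAAG, for ETS factors such as GABPA, was found in 17 (23.0%), against 9.12%, AAGATGGC, for YY1, in 9 (12.2%), against 2.88%, and TCAAGGTCA, for the estrogen-related receptors, in 2 (2.70%), against 0.407%. A match describes letters only. The promoters of Cycs and Sdhb are shown because both genes are core members that hold the NRF1 letters, which stand in capitals; each line gives the 250 bases before the start, 5′ to 3′ on the gene's strand.
Cycs: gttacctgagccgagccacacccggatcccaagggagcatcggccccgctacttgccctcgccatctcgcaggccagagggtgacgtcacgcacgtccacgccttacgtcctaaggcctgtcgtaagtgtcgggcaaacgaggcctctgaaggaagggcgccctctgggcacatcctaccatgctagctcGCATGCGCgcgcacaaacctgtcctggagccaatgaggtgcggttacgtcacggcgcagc
Sdhb: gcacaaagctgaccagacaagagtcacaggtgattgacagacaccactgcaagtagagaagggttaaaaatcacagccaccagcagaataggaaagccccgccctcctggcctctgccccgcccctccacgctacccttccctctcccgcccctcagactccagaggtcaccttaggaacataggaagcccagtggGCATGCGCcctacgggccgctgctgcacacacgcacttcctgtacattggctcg

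The Cycs line is GRCm38.p6 chr6:50566570-50566819, minus strand, and the Sdhb line is chr4:140961021-140961270, plus strand. Cycs had 310 and 392 normalised reads in K14 ablation, against 263 and 261 in K14 control, and Sdhb had 445 and 550, against 429 and 415. Both lay above both controls there, and neither passed the test.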

How the data were processed

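Per the submitters' processing notes, reads were handled with Trimmomatic, STAR, Picard and HTSeq (0.11.1) on GRCm38 (mm10); no source used here gives their settings, strand or annotation release. The authors deposited 1 table of normalised signal values per gene. In each library 100% of values were whole multiples of 1 step within 0.001, as the authors' read counts divided by a size factor would be. The ablation columns carry another word than the sample labels and were mapped by population and replicate number, 1.1 being taken as 1. limma 3.58.1 (R 4.3.3, variance trend, 4 group means, 8 libraries, 4 residual and 4.13 prior degrees of freedom) was run on log2(value + 1), which understates changes of low genes, over all 18140 genes at 1e-06 or more of the library total in 2 libraries or more. Alternatives were the pseudocount (0.5, 4), filter (none, a 5 times higher share), scaling, library weights, a fit of only the groups compared, edgeR 4.0.16 and DESeq2 1.42.0 on recovered reads, a replicate block, and leaving out each library. A floor of 3 reads is 2.12 to 4.23 normalised reads and covers counting error only. All 4 replicate pairs differed by more than sampling noise. The fit was tested on simulated data with the same spread in every group. That test does not cover the wider spread of the real ablation pairs. Members and lists were chosen with earlier results of these data known. The genes named are all mitochondrial members, those called, a fixed core, tissue forms and the 3 highest and 3 lowest nuclear values per comparison.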

Additional observations from a re-analysis of the deposited data

How the results depend on the processing

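Of the counts of members called and the medians, 246 values under an alternative stayed within the limits set for a change (a factor of 1.5 for counts, 1 SD between libraries for medians), 35 moved and 1 reversed. That 1 was the nuclear median of Lrig1 control against K14 control, -0.031 with equal totals. Another 3 nuclear medians changed sign while moving by less than 1 SD between libraries: that of Lrig1 ablation against Lrig1 control was 0.0815 with equal totals and 0.222 without Lrig1 ablation replicate 2, and that of Lrig1 ablation against K14 ablation was 0.0323 without that library. In Lrig1 ablation against Lrig1 control, the count of 2 became 0 with no filter, 1 with TMM scaling, 0 with equal totals, 1 with array weights, 0 with the replicate block and 12 with DESeq2. In Lrig1 control against K14 control the count of 12 became 19 with array weights and 31 with only the groups compared, and 9 with the replicate block. In K14 ablation array weights gave 1 call, and DESeq2 gave 1 for the difference of ablation effects. Leaving out 1 library gave 0 to 4 calls in K14 ablation against K14 control, 0 to 28 in Lrig1 ablation against Lrig1 control, 0 to 14 in Lrig1 control against K14 control, 0 to 49 in Lrig1 ablation against K14 ablation and 0 to 32 for the difference. The nuclear medians then ran over 0.12 to 0.42, -0.50 to 0.22, 0.0202 to 0.112, -0.67 to 0.03 and -0.779 to -0.0366. Atp5b in Lrig1 ablation against Lrig1 control was 0.49 without Lrig1 ablation replicate 2 and -0.51 without Lrig1 ablation replicate 1. The causes were not tested. Replicate numbers did not pair the libraries (correlations of their deviations of 0.0838, 0.0277, -0.0111 and 0.00929). Depth limits mt-Nd3, Cox6b2 and the 3 untested members.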
